A study of Mus musculus with 8 samples.

Results

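A pseudogene is a gene copy that has lost, or is annotated as having lost, the function of the gene it came from, which is called its parent here. Read counts of mouse dorsal root ganglia, where the cell bodies of sensory neurons lie, were examined for every pseudogene whose parent was counted as well. Members were the rows whose symbol ends in -ps, with or without a number, and whose prefix is itself a row. This rule held for 365 of the 25780 rows of the count files, and it used no measured value. The 365 pseudogenes had 223 distinct parents. A single member belonged to 162 of these parents, and 61 parents had several members, at most 8 (Hmgb1, Rpsa and Rpl31). A further 112 of the 477 rows with such a symbol had no counted parent and were not used here.

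The study asked how the histone methyltransferase G9a, encoded by Ehmt2, acts in sensory neurons during inflammatory pain. The inducible knockout mice (iKO) carried Avil-iCreERT2/AJwo, a tamoxifen-inducible Cre under the control of Avil, a gene of sensory neurons, together with G9a flox/flox alleles. How and when Cre was induced was not stated. The wild-type mice (WT) were littermates that lacked Cre, and their flox alleles were not described. The groups sequenced were WT vehicle, WT CFA, iKO vehicle and iKO CFA, each with 2 libraries, 14 days after vehicle or complete Freund's adjuvant (CFA, which causes lasting inflammation) was given in the left paw. The ganglia contain glia and other cells in which Avil does not drive Cre. Separate animals per library were not stated, so every p-value below measures the spread between these libraries, which may be technical.

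Most mouse pseudogenes are processed, meaning that a spliced messenger RNA was copied back into the genome without introns, and housekeeping genes with abundant messages, above all ribosomal protein genes, have many of them. A young processed copy can be nearly identical to the coding sequence of its parent. A short read from such a stretch can be placed on either copy, and the base that differs decides the placement. How reads with several possible placements were counted was not stated for these files, so each value below is uncertain as a measure of which copy was transcribed. For that reason the members are described by the share of the pair, which is the number of pseudogene reads divided by the pseudogene plus parent reads of that library. The share is one of reads and is not scaled by gene length.

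The libraries held 26312614 to 42971823 reads. Ehmt2 was at 61.3 to 74.4 scaled counts (CPM, the reads of a gene relative to a fixed number of library reads, with TMM scaling of library sizes) in the 4 WT libraries and at 31.6 to 45.0 CPM in the 4 iKO libraries. All 10 sensory neuron markers were above 1 CPM in every library. Their sum was 7382 and 9583 CPM in WT vehicle and 12672 to 15949 CPM in the other 6 libraries. Skeletal muscle markers (5 of 5 counted) summed to 241 CPM in WT vehicle library 1 and to 0.821 to 3.27 CPM in all others. The WT vehicle libraries stood apart: the nuclear RNA Malat1 was at 1187 and 1323 CPM there and at 27.4 to 57.0 CPM in the other 6 libraries, and 4 counted markers of B and plasma cells summed to 838 and 2075 CPM against 2.59 to 43.5 CPM. The 2 WT CFA libraries differed most from each other within a group. Schwann cell markers (6 of 6 counted) summed to 7803 CPM in WT CFA library 1 and 18826 CPM in library 2, and red cell markers (5 of 5) to 174 and 1486 CPM. In whole ganglia, fewer cells of a type and less RNA per cell cannot be told apart.

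The following coding stretches of 120 bases are shown because the pairs they belong to were among those with the clearest differences in share between groups, and because they show how few bases separate a pseudogene from its parent. Sequences are those of the GENCODE M21 models on the GRCm38 assembly, on the coding strand, and capitals mark the bases that differ within the pair. Positions are counted from 1 at the first coding base of the parent. The stretches start at coding base 51 for Atp6v0c, 227 for Rnps1, 119 for Rpl15, 334 for Rps13 and 111 for Rps18.
Atp6v0c-ps2: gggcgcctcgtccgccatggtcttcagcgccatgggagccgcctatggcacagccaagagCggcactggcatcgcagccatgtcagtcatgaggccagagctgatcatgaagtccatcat
Atp6v0c: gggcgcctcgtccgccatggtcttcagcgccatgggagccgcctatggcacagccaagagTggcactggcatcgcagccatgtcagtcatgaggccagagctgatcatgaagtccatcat
Rnps1-ps: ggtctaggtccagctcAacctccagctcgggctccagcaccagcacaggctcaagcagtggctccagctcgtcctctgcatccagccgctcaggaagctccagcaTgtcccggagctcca
Rnps1: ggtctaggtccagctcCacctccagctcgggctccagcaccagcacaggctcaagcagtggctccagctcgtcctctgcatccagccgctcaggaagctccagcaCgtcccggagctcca
Rpl15-ps6: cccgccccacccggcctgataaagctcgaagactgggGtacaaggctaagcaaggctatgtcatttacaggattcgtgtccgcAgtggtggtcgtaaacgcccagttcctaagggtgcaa
Rpl15: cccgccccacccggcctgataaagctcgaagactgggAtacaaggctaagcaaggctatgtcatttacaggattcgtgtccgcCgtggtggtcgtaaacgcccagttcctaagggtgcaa
Rps13-ps1: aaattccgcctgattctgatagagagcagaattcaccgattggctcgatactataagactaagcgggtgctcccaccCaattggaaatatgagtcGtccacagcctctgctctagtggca
Rps13: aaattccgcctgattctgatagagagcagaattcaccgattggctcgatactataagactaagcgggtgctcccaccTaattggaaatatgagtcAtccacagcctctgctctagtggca
Rps18-ps5: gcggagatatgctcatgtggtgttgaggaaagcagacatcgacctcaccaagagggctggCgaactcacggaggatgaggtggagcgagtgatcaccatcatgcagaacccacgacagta
Rps18: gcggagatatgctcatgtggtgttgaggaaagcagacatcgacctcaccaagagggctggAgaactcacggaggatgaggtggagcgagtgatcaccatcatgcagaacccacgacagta
Over the coding bases that aligned, Atp6v0c-ps2 differed from Atp6v0c by 1 substitution, T111C, in 465 bases. Rpl15-ps6 differed from Rpl15 by A156G and C202A in 612 bases, and Rps13-ps1 from Rps13 by T411C and A429G in 453 bases. Rps18-ps5 carried T11A, A171C and A337C against the 456 bases of Rps18. Rnps1-ps carried C243A, C332T, T561C, T582C and C756T over 843 of the 915 coding bases of Rnps1. None of these 5 alignments held a gap in the coding sequence.

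The 365 pseudogenes took 463624 reads in all over the 8 libraries. Their totals ran from 2 to 29047 reads with a median of 89, and the 12 pairs with the most pseudogene reads held 43.7% of them. These were, in falling order, Atp6v0c-ps2, Gpx4-ps2, Rps7-ps3, Ap2m1-ps, Mpc1-ps, Rpl14-ps1, Rps10-ps2, Ubb-ps, Ptges3-ps, Rps2-ps10, Morf4l1-ps1 and Pisd-ps3. Summed over all pairs, the pseudogene share was 3.76% and 3.67% in WT vehicle, 2.80% and 3.27% in WT CFA, 3.23% and 3.21% in iKO vehicle, then 3.34% and 3.46% in iKO CFA. The group means were 3.71% ± 0.0658, 3.03% ± 0.332, 3.22% ± 0.0193 and 3.40% ± 0.0914 (SD, n = 2). Both WT vehicle libraries lay above all others, and the WT CFA libraries lay the farthest apart, with the range of iKO vehicle inside theirs. Without Rps2-ps10 and Rps18-ps5, left out after the values had been seen, WT vehicle was at 3.25% and 3.20%, within the range of the other libraries (2.79% to 3.46%). With 2 libraries a group, this share was not tested.

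**Figure D1:**
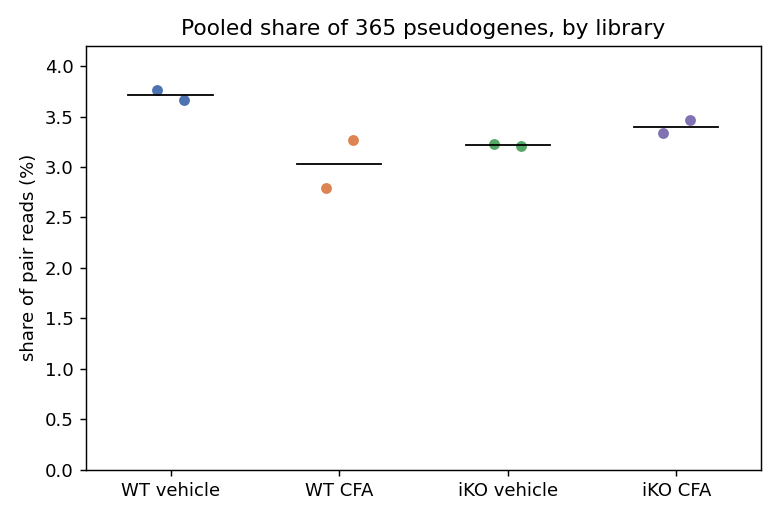
Share of pseudogene reads in the pseudogene plus parent reads, in percent, summed over all 365 pairs. Points are the 8 libraries and lines the group means, which ran from 3.03% in WT CFA to 3.71% in WT vehicle.

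The pooled share hid a wide spread among pairs. Of the 365 pairs, 358 had at least 50 reads of the pair in every library, and 223 of these had a pseudogene read in every library. Averaged over the 8 libraries, the share ran from 0.000866% to 92.1% with a median of 0.279%. It was under 1% in 234 pairs, over 10% in 32 pairs and over 50% in 2 pairs, Rpl28-ps1 and Mpc1-ps. Rpl28-ps1, a copy of a large-subunit ribosomal protein gene, took 86.3% to 96.9% of its pair's reads in every library, while its parent row held only 11 to 43 reads.

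The share of a pair went with how closely the copies matched. A model of the pseudogene was found in GENCODE M21 for 334 members, 38 of them under an older symbol, and 329 aligned to a transcript of the parent. Identity over the best alignment had a median of 98.6% (73.7% to 100%). At least 1 window of 100 bases that is found unchanged in the parent was present in 272 of the 329, and the median member had 27.3% such windows. The median share was 0.0520% in the 54 pairs under 95% identity, 0.0894% in 74 pairs from 95% to 98%, and 0.433% in 71 pairs from 98% to 99%. It was 1.44% in 100 pairs from 99% to below 100% and 4.09% in 25 pairs that were identical over the best alignment. Across these 324 pairs Spearman's rho between the share and the percentage of unchanged windows was 0.61, given as a description because pairs share libraries and parents and are not independent. For 22 pairs in which every window was unchanged, the median share was 4.69% and the highest in a library was 96.9%.

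**Figure D2:**
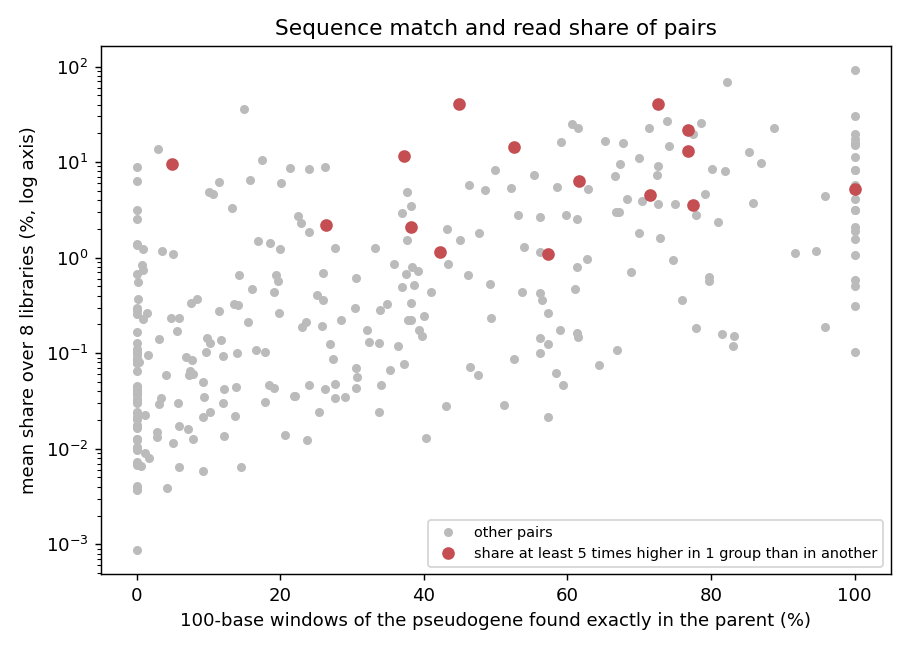
Mean share over the 8 libraries (percent, log axis) against the percentage of 100-base windows of the pseudogene found unchanged in the parent, for 324 pairs. Red points are the pairs whose share was at least 5 times higher in every library of 1 group than in every library of another; their match had a median of 57.3% and ran from 4.92% to 100%.

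Annotation classed most members as processed copies: GENCODE M21 listed 287 as processed pseudogenes and 17 as transcribed processed pseudogenes. Another 16 were unprocessed pseudogenes, 6 of them transcribed, 13 were listed as protein-coding genes and 1 as a long noncoding RNA. The model lay outside other genes for 229 members, in an intron of a gene on the opposite strand for 55 and on the same strand for 34. It overlapped an exon of another gene for 16. Among the 32 pairs with a share over 10%, 18 lay outside other genes, 8 in an intron of a gene on the opposite strand, 3 in an intron on the same strand and 1 over an exon on the opposite strand, and 2 had no model. Reads of a host gene could be counted for the same-strand models under any strand setting, and for the opposite-strand models if the counting ignored strand, which was not stated.

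Large differences in share between groups were found in a small set of pairs. In 17 pairs, with 15 parents, the share was at least 5 times higher in every library of 1 group than in every library of another, with a group mean of at least 2% and at least 50 pseudogene reads in each library of the high group. This rule was chosen after the shares had been seen, so the set is a description. Of the 17 pairs, 8 had ribosomal protein parents. The 15 of them with a model had a median identity of 99.4% and 57.3% unchanged windows, against 98.5% and 26.0% for the 309 other aligned pairs. The set was chosen for its shares, which went with the match over all pairs, so nothing is read from this difference. With the exception of Mid1-ps1, the pairs fell into patterns by group, taken in turn below. Outside the set, the ratio between groups could be as large where pseudogene reads were few, as in Rps18-ps3, which took 3.93% and 2.06% in WT vehicle and 0.0372% to 0.0938% in the 6 other libraries.

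**Figure D3:**
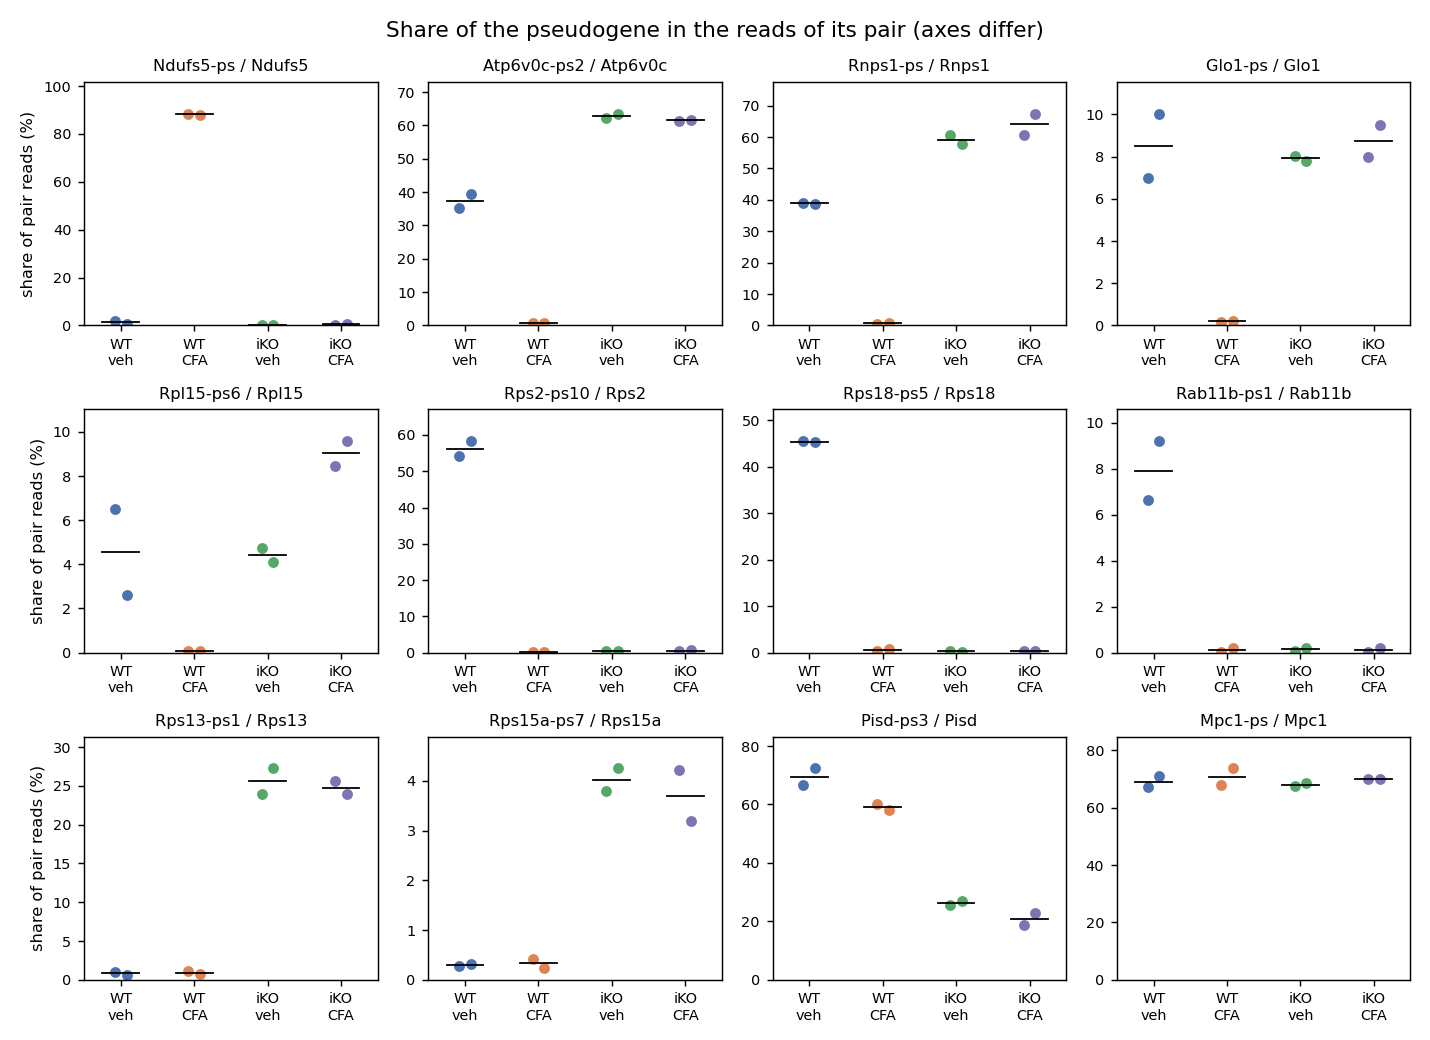
Share of the pseudogene in the reads of its pair, in percent, for 12 pairs. Points are libraries, lines are group means, and each panel has its own axis from 0; Ndufs5-ps is high only in WT CFA, Atp6v0c-ps2 is low only there, Rps2-ps10 is high only in WT vehicle, Rps13-ps1 is high only in iKO, and Mpc1-ps is similar in all 8 libraries.

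Of these pairs, 5 were low in WT CFA alone. Atp6v0c encodes the proteolipid subunit of the vacuolar proton pump. Its copy Atp6v0c-ps2 took 35.3% and 39.4% of the pair's reads in WT vehicle, 0.693% and 0.796% in WT CFA, 62.3% and 63.4% in iKO vehicle, then 61.3% and 61.8% in iKO CFA. The highest WT CFA library lay far below the lowest of the other 6, and the iKO libraries lay above both WT vehicle libraries. The exact 95% binomial intervals were at most 1.61 percentage points to either side and cover counting error only, since reads without molecular tags are not independent molecules. In CPM, Atp6v0c-ps2 was at 40.5 and 56.9 in WT vehicle, 2.27 and 1.75 in WT CFA, 196 and 202 in iKO vehicle, then 151 and 157 in iKO CFA. By edgeR's quasi-likelihood test it fell by 4.59 ± 0.25 on the log2 scale with CFA in WT (adjusted p = 0.000146), while the parent Atp6v0c rose by 1.75 ± 0.23 (adjusted p = 0.00332). The call of the parent was lost without WT vehicle library 1.

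Rnps1 encodes an RNA-binding protein of the splicing machinery, and Rnps1-ps was likewise lowest in WT CFA and higher in every iKO library than in WT vehicle. Its share was 39.1% and 38.8% in WT vehicle, 0.605% and 0.788% in WT CFA, 60.7% and 57.7% in iKO vehicle, then 60.7% and 67.3% in iKO CFA. Rnps1-ps fell by 5.90 ± 0.25 (log2) with CFA in WT (adjusted p = 8.28e-05), and the parent was at 0.62 ± 0.21 with an adjusted p of 0.0782 by the same test. The third pair was that of Glo1, the glyoxalase that detoxifies methylglyoxal. Glo1-ps took 7.002% and 10.02% in WT vehicle, 0.172% and 0.232% in WT CFA, 8.03% and 7.81% in iKO vehicle, then 7.96% and 9.50% in iKO CFA. Here the iKO shares overlapped those of WT vehicle.

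Of the 4 copies of Rpl15, a large-subunit ribosomal protein gene, Rpl15-ps6 and Rpl15-ps2 had their lowest shares in WT CFA by a wide margin. Rpl15-ps6 took 6.498% and 2.61% in WT vehicle, 0.0956% and 0.0946% in WT CFA, 4.76% and 4.10% in iKO vehicle, then 8.48% and 9.58% in iKO CFA. Rpl15-ps2 took 1.26% and 0.751%, 0.0287% and 0.0379%, 1.36% and 1.35%, and 2.58% and 1.88% in the same order. The iKO CFA libraries were the highest for both, and all 4 copies share 1 parent row. Rpl15-ps3 differed less, at 1.27% and 0.938% in WT vehicle, 0.769% and 0.615% in WT CFA and 1.85% to 3.98% in iKO, and Rpl15-ps5 had 5 reads in all. In CPM, Rpl15-ps6 fell by 4.56 ± 0.56 (log2) with CFA in WT, with an adjusted p of 0.00294 by edgeR's quasi-likelihood test.

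Another 2 pairs were high in WT CFA alone. Ndufs5 encodes an accessory subunit of mitochondrial complex I. In CPM, Ndufs5-ps was at 1.17 and 0.477 in WT vehicle, 91.4 and 130.3 in WT CFA, 0.245 and 0.316 in iKO vehicle, then 0.482 and 0.685 in iKO CFA. The parent Ndufs5 was at 63.9 and 71.3, 12.1 and 17.9, 98.3 and 102, and 143 and 141 CPM in the same order, so the WT CFA libraries were the highest for the copy and the lowest for the parent. The share of Ndufs5-ps was 88.3% and 87.9% in WT CFA and 0.249% to 1.80% in the 6 other libraries. With CFA in WT, Ndufs5-ps rose by 7.08 ± 0.42 (log2, adjusted p = 0.000183) and Ndufs5 fell by 2.17 ± 0.22 (adjusted p = 0.00131) by edgeR's quasi-likelihood test. The second pair was Hmgn2-ps1, a copy of the gene of a nucleosome-binding protein. Its share was 16.04% and 14.1% in WT CFA and 1.28% to 2.50% elsewhere, on 111 and 123 pseudogene reads. The aligned sequence of Hmgn2-ps1 was identical to its parent.

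A further 6 pairs were highest in WT vehicle, the libraries that also stood apart in Malat1 and in B and plasma cell markers, whose part in these shares was not tested. Rps2 and Rps18 encode proteins of the small ribosomal subunit. Rps2-ps10 took 54.2% and 58.3% of its pair's reads in WT vehicle, 0.182% and 0.245% in WT CFA, 0.510% and 0.351% in iKO vehicle, then 0.349% and 0.607% in iKO CFA. Rps18-ps5 took 45.5% and 45.2% in WT vehicle and 0.187% to 0.763% in the other 6 libraries. For both, WT vehicle lay apart from all other libraries, and for Rps2-ps10 the WT CFA libraries were also below all 4 iKO libraries. In CPM, Rps2-ps10 was at 169 and 145 in WT vehicle and at 0.614 to 2.88 elsewhere, and Rps18-ps5 at 62.1 and 47.8 against 0.258 to 2.12. By edgeR's quasi-likelihood test, Rps2-ps10 was at -7.22 ± 0.48 (log2) both with CFA in WT (adjusted p = 0.000244) and in iKO against WT under vehicle (adjusted p = 0.000226). Both comparisons use the same WT vehicle libraries, so the second is no separate evidence.

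Rab11b encodes a small GTPase of recycling endosomes. Rab11b-ps1 took 6.64% and 9.20% in WT vehicle and 0.0327% to 0.199% elsewhere. The copy and its parent passed the test in opposite directions with CFA in WT (copy -5.45 ± 0.85, parent 1.01 ± 0.18 log2). They did so too in iKO against WT under vehicle, which uses the same WT vehicle libraries (copy -4.67 ± 0.79, parent 1.28 ± 0.18 log2). All 4 calls were lost without WT vehicle library 1, and some of them also without WT vehicle library 2 or an iKO vehicle library. Rbpj-ps3, a copy of the gene of the DNA-binding protein of Notch signalling, took 12.8% and 8.33% in WT vehicle and 0.105% to 2.12% elsewhere. Rpl35a-ps2 took 2.71% and 4.32% against 0.0972% to 0.514%. Ifi203-ps, a copy of an interferon-inducible gene, had 233 and 290 reads in WT vehicle, 7 and 8 in WT CFA, 17 and 4 in iKO vehicle, then 0 in both iKO CFA libraries. With 3 reads as the limit that a count of 0 allows, the 287 and 289 reads of that pair leave room for a share of up to 1.05% and 1.04%, and the exact 95% interval ends at 1.28% and 1.27%.

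High in both iKO groups were 3 pairs. Rps13 encodes a protein of the small ribosomal subunit. Rps13-ps1 took 0.975% and 0.657% in WT vehicle, 1.08% and 0.780% in WT CFA, 23.9% and 27.3% in iKO vehicle, then 25.6% and 23.9% in iKO CFA. All 4 iKO libraries lay above all 4 WT libraries, whatever the treatment. Rps13-ps1 was higher in iKO by 4.47 ± 0.33 (log2) under vehicle (adjusted p = 0.000319) and by 5.19 ± 0.34 under CFA (adjusted p = 0.000287) by edgeR's quasi-likelihood test. Its parent was lower in iKO under vehicle (log2 -0.89 ± 0.20, adjusted p = 0.0221), a call lost without WT vehicle library 1, without either iKO vehicle library and without iKO CFA library 1, and was at 0.05 ± 0.20 under CFA. Rps15a-ps7 took 0.235% to 0.423% in the WT libraries and 3.19% to 4.25% in the iKO libraries, also without overlap. Rps2-ps6, another copy of Rps2, took 0.351% to 0.937% in WT and 2.38% to 4.59% in iKO.

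Pisd encodes the mitochondrial phosphatidylserine decarboxylase. Its copy Pisd-ps3, which is not among the 17 pairs, ran the other way. Its share was 66.6% and 72.4% in WT vehicle, 60.3% and 58.0% in WT CFA, 25.7% and 26.8% in iKO vehicle, then 18.9% and 22.9% in iKO CFA. Every WT library was above every iKO library. Pisd-ps3 was lower in iKO than in WT by edgeR's quasi-likelihood test, at -2.92 ± 0.23 (log2, adjusted p = 0.00037) under vehicle and -2.20 ± 0.22 (adjusted p = 0.00257) under CFA. The parent was at -0.23 ± 0.22 and 0.24 ± 0.22 and did not pass. The remaining pair of the 17, Mid1-ps1, varied within groups as much as between them: its share was 38.8% and 39.5% in WT vehicle, 4.17% and 40.1% in WT CFA, 3.25% and 7.02% in iKO vehicle, then 29.4% and 12.1% in iKO CFA. Mid1-ps1 had 4 to 15 reads in 5 of these libraries.

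Some other pairs with many reads had shares that lay closer together. Mpc1 encodes a subunit of the mitochondrial pyruvate carrier, and Mpc1-ps took 67.1% to 73.7% of the pair in all 8 libraries. The shares of Ptges3-ps ran from 13.7% to 16.7%, those of Ap2m1-ps from 12.2% to 16.5%, and those of Gpx4-ps2, a copy of the gene of a peroxidase that protects membrane lipids, from 13.5% to 17.5%, with both WT vehicle libraries below the other 6. The range of WT CFA covered all other libraries for Ptges3-ps and all but WT vehicle library 1 and iKO vehicle library 1 for Mpc1-ps. In the pairs of Mpc1 and Gpx4 the copy and the parent passed the test in the same direction. With CFA in WT, Mpc1-ps rose by 1.45 ± 0.36 and Mpc1 by 1.25 ± 0.28 (log2, adjusted p = 0.0295 and 0.0226, edgeR's quasi-likelihood test). Gpx4-ps2 and Gpx4 rose by 1.48 ± 0.33 and 1.28 ± 0.37 (adjusted p = 0.0212 and 0.0465). These 4 calls were lost without WT vehicle library 1, without WT vehicle library 2 and without iKO CFA library 2. Gpx4-ps2 was at 75.2 CPM in WT CFA library 1 and 171 CPM in library 2, so much of its spread lay within that group.

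The position of the parents was compared with that of Ehmt2, the targeted gene, in the RefSeq gene order of GRCm38.p6, after the shares had been seen. All 223 parents were placed. Of the 15 parents of the pairs whose shares differed, 6 were on the chromosome of Ehmt2: Rps18, Rab11b, Glo1, Rps2, Rnps1 and Atp6v0c. Of the other 208 parents 9 were on it, or 4.33%, and of all counted genes that were placed 4.9% were. Between Ehmt2 and these parents lay 54 counted genes for Rps18, 73 for Rab11b, 145 for Glo1, 321 for Rps2, 344 for Rnps1 and 352 for Atp6v0c. Of the 17 pseudogenes themselves, 0 were on that chromosome, where 23 of the 356 members that were placed lay. Of the copies of these 6 parents, Rps18-ps5, Rps2-ps10 and Rab11b-ps1 were high in WT vehicle, Glo1-ps, Rnps1-ps and Atp6v0c-ps2 were low in WT CFA, and Rps2-ps6 was high in iKO. Mpc1 and Rps10, whose copies had shares of 67.1% to 73.7% and of 17.7% to 31.8%, were on the same chromosome too. The other 9 parents, among them Ndufs5, Rpl15 and Rps13, were on other chromosomes. No test was made on the position, and its part in the shares was not tested. Whether the libraries differed in genomic sequence or strain background at these genes was not examined here. A rise or fall with CFA in WT is therefore a difference between the WT CFA and the WT vehicle libraries. For Ndufs5-ps and Rab11b-ps1 no model was found, so their sequences were not compared with those of their parents. The 15 aligned pairs of the 17 ran from 95.2% to 100% identity.

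Tests across all genes were read out for the members next. After removal of rows with few reads, 228 of the 365 pseudogenes and 221 of the 223 parents were tested, with p-values adjusted over all 20235 genes. The 137 pseudogenes that were not tested had too few reads, so the counts below do not stand for all members. With CFA in WT, 25 of 228 pseudogenes passed (14 higher, 11 lower), or 10.96%, where 16.8% of all genes tested did (8.12% higher, 8.71% lower). Of the parents, 45 of 221 passed (37 higher, 8 lower), or 20.4%. The median log2 fold change was 0.09 for pseudogenes, 0.29 for parents and -0.03 for all genes. The order of members and background was not the same in other fits. Without WT vehicle library 1, 3.16% of pseudogenes and 0.90% of parents passed against 1.21% of all genes. With only the 4 libraries compared it was 5.76% and 1.81% against 4.04%, and without WT CFA library 1 it was 17.3% and 50.2% against 34.6%. The count of pseudogenes was 8 without WT vehicle library 1, 15 without WT vehicle library 2, 16 without iKO CFA library 2 and 44 without WT CFA library 1. Leaving out any of the 8 libraries moved the parent count by over 1.5 times, to 2 and 12 without WT vehicle libraries 1 and 2, to 112 and 97 without WT CFA libraries 1 and 2, and to 20 to 24 without an iKO library.

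The direction of each called pseudogene was set beside that of its parent. Both copies passed in 16 pairs, in 9 of them in opposite directions: Ndufs5-ps rose, and Atp6v0c-ps2, Glo1-ps, Rab11b-ps1, Rpl15-ps2, Rpl15-ps6, Rps18-ps3, Rps18-ps5 and Rps2-ps10 fell, each against its parent. The 7 pairs that passed in the same direction were Gpx4-ps2, Ifi203-ps, Mpc1-ps, Nutf2-ps1, Oaz1-ps, Rps2-ps6 and Tubb4b-ps1. Rps2 thus had a copy that fell, Rps2-ps10 (-7.22 ± 0.48), and a copy that rose, Rps2-ps6 (2.71 ± 0.40), while the parent rose by 1.97 ± 0.31 on the log2 scale. Of the copies that rose in these pairs, Ndufs5-ps alone kept its call without WT vehicle library 1. The calls of the falling copies Rab11b-ps1 and Rps18-ps3 were lost there too. So were those of Rps2, Rps18, Rpl15, Glo1, Rab11b, Atp6v0c, Gpx4 and Mpc1 as parents. Ifi203-ps and the parents Ifi203, Nutf2, Oaz1 and Tubb4b were not followed singly.

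**Figure D4:**
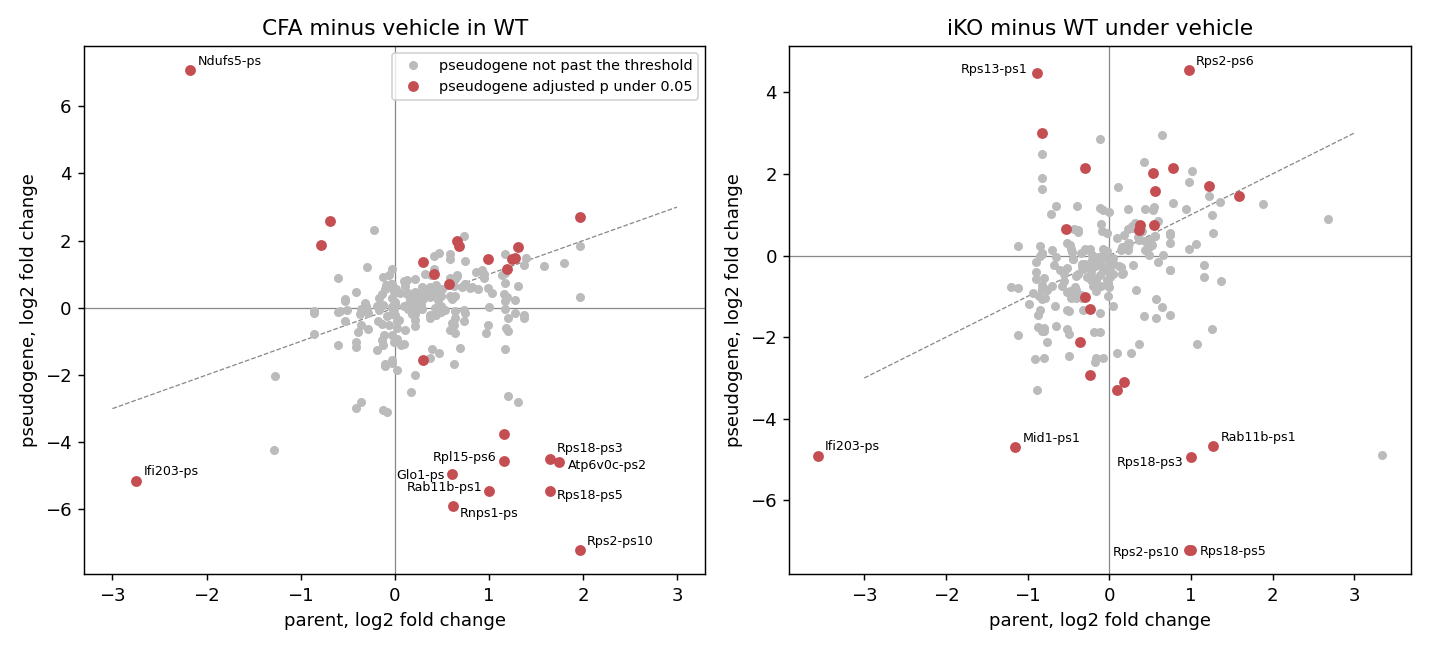
Log2 fold change of each tested pseudogene against that of its parent, with CFA in WT (left) and in iKO against WT under vehicle (right). Red points are pseudogenes with an adjusted p under 0.05, names mark those beyond 4 on the log2 scale, and the dashed line marks equal change; points in the upper left and lower right quadrants moved against their parents.

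With CFA in iKO, 0 of 228 pseudogenes and 0 of 221 parents passed edgeR's quasi-likelihood test, where 0.0395% of all genes did (0.0395% higher, 0% lower). At an unadjusted p under 0.05 there were 43 pseudogenes and 106 parents, and DESeq2 called 21 and 70. By DESeq2 these were 14.2% and 32.1% of those tested, against 20.6% of all genes. The medians were 0.60 for pseudogenes, 0.38 for parents and -0.00 for all genes, and 167 of 228 pseudogenes and 163 of 221 parents had a fold change above 0. More members passed when 1 of the WT CFA libraries, which are not among the 4 libraries compared, was left out. In both of these fits the pseudogenes were below the share of all genes and the parents above it. The share of Atp6v0c-ps2 in iKO was at 62.3% and 63.4% under vehicle and at 61.3% and 61.8% under CFA, without overlap but close. Rpl15-ps6 went from 4.76% and 4.10% to 8.48% and 9.58%, at 1.91 ± 0.44 (log2) with an adjusted p of 0.0943.

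In iKO against WT under vehicle, 25 of 228 pseudogenes (13 higher, 12 lower) and 33 of 221 parents (21 higher, 12 lower) passed, where 17.6% of all genes tested did (8.28% higher, 9.33% lower). These are 10.96% and 14.9%, both below the background, an order that turned in other fits. Both were above it without WT vehicle library 1 (3.16% and 2.69% against 1.84%), without iKO vehicle library 1 (3.54% and 3.15% against 3.09%) and without iKO vehicle library 2 (3.16% and 2.69% against 2.14%). The parents alone were above it with DESeq2 (27.6% against 26.8%), without a filter (14.35% against 14.05%), with only the 4 libraries compared (49.1% against 42.9%), without WT vehicle library 2 (9.91% against 8.47%) and without WT CFA libraries 1 and 2 (56.1% each, against 39.2% and 38.9%). The medians were -0.22 for pseudogenes, -0.00 for parents and 0.01 for all genes. Both copies passed in 7 pairs. Rps13-ps1 and Rab11b-ps1 moved against their parents, and Glo1-ps, Ifi203-ps, Mid1-ps1, Tubb2a-ps1 and Tubb4b-ps1 moved with them. The largest differences were those of Rps2-ps10 and Rps18-ps5 (-7.22 ± 0.48 and -7.21 ± 0.70) and, upward, of Rps2-ps6 (4.55 ± 0.41) and Rps13-ps1 (4.47 ± 0.33, all log2). Those of Rps2-ps10 and Rps18-ps5 were set by the same WT vehicle libraries as their falls with CFA in WT, and are no separate evidence. The pseudogene count was 56 without either WT CFA library, 8 and 14 without WT vehicle libraries 1 and 2, and 9 and 8 without iKO vehicle libraries 1 and 2. The parent count was 125 without either WT CFA library, 6 without WT vehicle library 1, 7 and 6 without iKO vehicle libraries 1 and 2, and 17 without either iKO CFA library.

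In iKO against WT under CFA, 13 of 228 pseudogenes passed (11 higher, 2 lower), or 5.70%, and 9 of 221 parents (7 higher, 2 lower), or 4.07%, where 1.7% of all genes tested did (1.5% higher, 0.208% lower). The medians were 0.11, 0.05 and -0.02 for pseudogenes, parents and all genes. Glo1-ps was higher in iKO by 6.55 ± 0.33, Rpl15-ps6 by 6.60 ± 0.59, Rnps1-ps by 6.44 ± 0.26, Atp6v0c-ps2 by 6.25 ± 0.27 and Rpl15-ps2 by 5.92 ± 0.56 on the log2 scale. Lower in iKO were Ndufs5-ps (-7.55 ± 0.43) and Pisd-ps3. The first 5 are the pairs low in WT CFA alone, so these differences were set by the same WT CFA libraries as those above, and they are no separate evidence. Against their copies, Atp6v0c (-1.50 ± 0.22, adjusted p = 0.0155) and Rnps1 (-1.57 ± 0.22, adjusted p = 0.0118) were lower in iKO, and Ndufs5 was higher (3.24 ± 0.23, adjusted p = 0.000314). The calls of Atp6v0c and Rnps1 were lost without either iKO CFA library. The order of members and background turned in other fits. With DESeq2, 9.21% of pseudogenes and 4.07% of parents passed against 6.09% of all genes. With only the 4 libraries compared it was 3.63% and 0.909% against 0.183%. Without WT CFA library 2 the pseudogenes were below the share of all genes and the parents above it. Leaving out single libraries also moved both counts widely, and the share of all genes called moved widely in these fits too.

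The difference between the CFA responses of the genotypes (iKO minus WT, the interaction) was past the threshold for 16 of 228 pseudogenes (12 higher, 4 lower), or 7.02%, and 17 of 221 parents (8 higher, 9 lower), or 7.69%, where 9.36% of all genes tested passed (6.19% higher, 3.17% lower). Without WT vehicle library 1 these shares were 3.16% and 1.35% against 1.06%, and without WT CFA library 2 they were 19.1% and 59.2% against 38.2%. The medians were 0.41, 0.01 and -0.04. The largest differences were those of Rps2-ps10 (8.28 ± 0.63), Rps18-ps5 (6.81 ± 0.91), Rpl15-ps6 (6.47 ± 0.72), Rps18-ps3 (6.34 ± 1.25) and Ndufs5-ps (-6.02 ± 0.70, all log2). Both copies passed in 4 pairs, against each other in Atp6v0c, Ndufs5 and Rab11b and together in Tubb4b. The count of pseudogenes was 48 without WT CFA library 2, 10 without either iKO CFA library, 9 and 8 without iKO vehicle libraries 1 and 2 and 8 without WT vehicle library 1. The count of parents was 132 and 66 without WT CFA libraries 2 and 1, 3 and 8 without WT vehicle libraries 1 and 2, and 3 or 4 without an iKO library.

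To measure how the split of reads between copies enters the parents' results, the reads of all members were added to those of their parent and the same fit was made, a step chosen after the data had been seen. Of the 45 parents called with CFA in WT, 39 were still called and 6 were not, with 1 call in the reverse direction. For iKO against WT under vehicle, 25 of 33 calls were still made, 8 were lost and 4 were gained. Under CFA 5 of 9 were still made, and for the interaction 14 of 17. In the median parent the log2 fold change moved by 0.05 with CFA in WT, and it moved by over 0.5 in 6 parents.

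The parent with the reverse direction was Ndufs5. Summed over the pair, its CPM were 65.1 and 71.8 in WT vehicle, 104 and 148 in WT CFA, 98.6 and 102 in iKO vehicle, then 144 and 142 in iKO CFA. The pair was thus lowest in WT vehicle, while WT CFA library 1 lay among the iKO libraries and WT CFA library 2 above them all. Its log2 change with CFA in WT was 0.83 ± 0.21 (adjusted p = 0.0323) for the sum against -2.17 for Ndufs5 alone. For iKO against WT under CFA it was 0.17 (adjusted p = 0.745) against 3.24, and for the interaction -0.32 (adjusted p = 0.501) against 2.68. For Atp6v0c, iKO against WT under CFA was at -0.12 (adjusted p = 0.832) for the sum against -1.50 alone, and under vehicle at 1.23 (adjusted p = 0.00912) against 0.54. Rnps1 was at -0.09 (adjusted p = 0.866) against -1.57 under CFA. With CFA in WT, Rps2 was at 0.75 (adjusted p = 0.115) against 1.97, and Rps18 at 0.72 (adjusted p = 0.154) against 1.65. Rps13 under vehicle was at -0.55 (adjusted p = 0.105) against -0.89. Pisd under vehicle gained a call, at -1.44 (adjusted p = 0.00393) against -0.23 alone. All adjusted p-values are from edgeR's quasi-likelihood test.

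**Figure D5:**
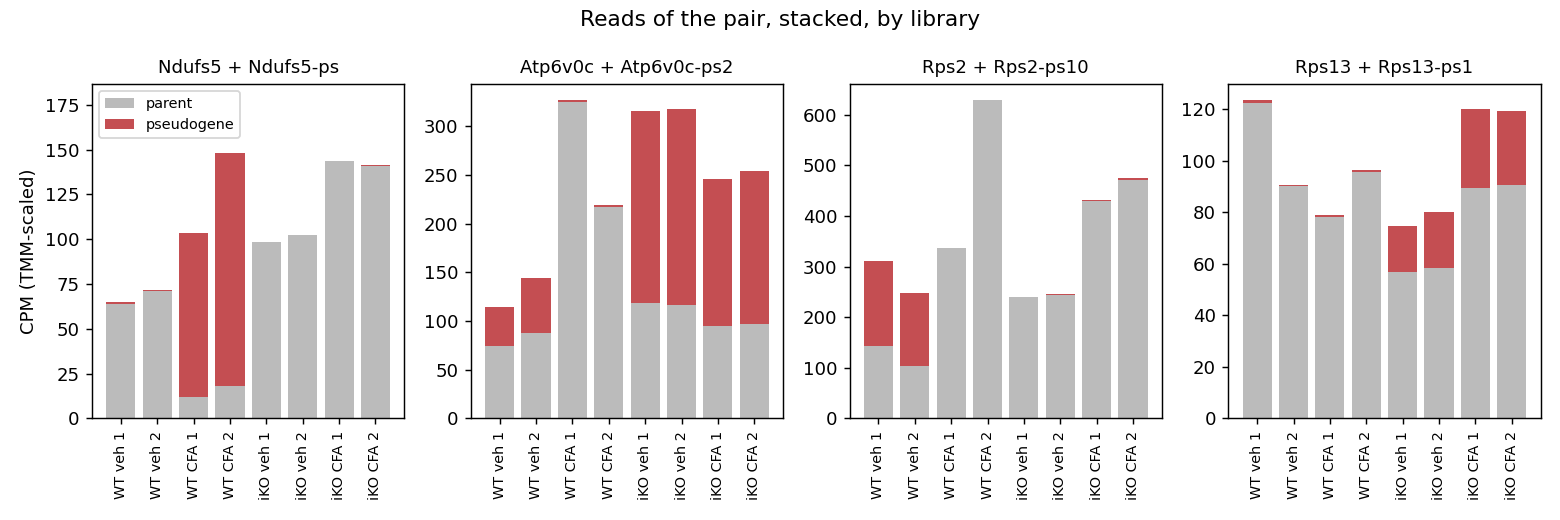
TMM-scaled CPM of parent (grey) and pseudogene (red), stacked, in each of the 8 libraries for 4 pairs. The height of a bar is the pair's total: for Ndufs5 it is 104 and 148 CPM in WT CFA, most of it on the pseudogene, while the totals of the other libraries are nearly all on the parent.

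Grouped by the role of the parent, the largest set was that of the cytosolic ribosomal proteins, with 152 pseudogenes of 53 parents, 91 of the pseudogenes tested. Their pooled share was 5.76% and 5.47% in WT vehicle, 4.22% and 4.32% in WT CFA, 4.90% and 4.74% in iKO vehicle, then 5.11% and 5.14% in iKO CFA. The groups did not overlap, with WT vehicle highest and WT CFA lowest. Without the same 2 pseudogenes, Rps2-ps10 and Rps18-ps5, the shares were 4.08% and 3.70% in WT vehicle and 4.21% and 4.30% in WT CFA, so that WT vehicle became the lowest group, and 4.73% to 5.12% in iKO. Their summed level was 759 and 574 CPM in WT vehicle, 397 and 784 in WT CFA, 428 and 410 in iKO vehicle, then 800.2 and 796 in iKO CFA, so WT CFA library 2 was at the level of iKO CFA and library 1 below iKO vehicle. The 53 parents moved in the same order of libraries within WT CFA, at 9025 and 17370 CPM, as did 35 Rpl and Rps genes without members, at 5297 and 10399 CPM. Schwann and red cell markers moved in that direction between these libraries too, and their part in it was not tested. With CFA in WT, 3 of the 91 pseudogenes were higher and 5 lower (8.79% called), and 3 of the 53 parents were higher (5.66%), where 16.8% of all genes were called (8.12% higher, 8.71% lower).

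Respiratory chain and ATP synthase parents had 11 pseudogenes, 7 of them tested, with pooled shares of 3.07% and 3.59% in WT vehicle, 10.1% and 7.997% in WT CFA, 2.43% and 2.95% in iKO vehicle, then 2.37% and 1.92% in iKO CFA. With CFA in WT, 1 of the 7 passed (14.3%, against 16.8% of all genes), Ndufs5-ps, and its reads were most of the WT CFA share. Chromatin and nuclear genes had 12 pseudogenes of 4 parents, with shares from 2.01% to 3.24%, and ubiquitin and proteasome genes had 6, with shares from 2.03% to 3.82%. Cytoskeletal genes had 6 pseudogenes, all tested, with shares from 0.396% to 0.628%. Of these, 2 rose with CFA in WT and were higher in iKO under vehicle, the tubulin copies Tubb4b-ps1 and Tubb2a-ps1, where 8.12% and 8.28% of all genes did so. Both calls with CFA in WT were lost without WT vehicle library 1, and so was at least 1 of those under vehicle. Enzymes of glycolysis and metabolism had 9 pseudogenes with shares from 0.144% to 0.249%. The 124 parents outside these lists had 152 pseudogenes, with shares from 3.88% to 5.15%.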

How the data were processed

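The authors deposited counts, the unscaled number of reads on each gene symbol, in 8 files with identical rows; per the submitters' processing notes the authors used HISAT2 2.2.1, SAMtools 1.19.2 and featureCounts 2.0.6 with GRCm39 (mm39), and named DESeq2 without a version. The gene annotation, strandedness, read length and treatment of reads with several placements are not given in the sources used here. No further columns (0) of other samples were present.

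Rows were filtered with filterByExpr and scaled by TMM, and edgeR 4.0.16 (R 4.3.3) fitted a quasi-likelihood model with a mean per group to all 8 libraries. Two-sided F-tests had Benjamini-Hochberg adjustment over 20235 genes, with a threshold of 0.05, and log2 fold changes stand ± SE. DESeq2 1.42.0 was an alternative. The fit was tested on simulated data with known changes. Tables and figures used Python 3.11.15, pandas 2.3.3, SciPy 1.17.1 and matplotlib 3.10.9. Shares have exact Clopper-Pearson 95% intervals. Pseudogene models were aligned to parent transcripts of GENCODE M21 (GRCm38) with BLAST 2.17.0, and because this is not the build of the files no coordinates are given.

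The members and lists were chosen with earlier results of these data known. The text names Ndufs5 and its copy, the 6 pseudogenes with the smallest p past the threshold in each comparison and their parents, the 12 pairs with most pseudogene reads, the 6 pairs with the highest share and the 6 with the widest range between groups, and pairs called in opposite directions. Other names, including the rest of the 17 pairs and the copies called together with their parents, were chosen after their values were seen. Libraries of a group differed by more than sampling noise (chi-square of 11.4 to 297 per degree of freedom), so none was counted as a duplicate. Replicate numbers are not stated to pair libraries, and the deviations of same-numbered libraries correlated at -0.14 to 0.03 between groups. Alternatives were RLE scaling, no filter, DESeq2, the other quasi-likelihood setting, the 4 compared libraries only, each library left out, a replicate block and other forms of the share.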

Additional observations from a re-analysis of the deposited data

Results flagged for a closer look

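The difference between the CFA responses of the genotypes passed for 15 of the named genes. The test was edgeR's quasi-likelihood interaction test (Benjamini-Hochberg adjusted p under 0.05, iKO minus WT on the log2 scale, n = 2 libraries a group). The named genes were chosen in part by this same test, so the count is no result about them. Among all genes tested 9.36% passed, against 7.02% of the pseudogenes and 7.69% of the parents. The CFA response was higher in iKO than in WT for Rps2-ps10 (8.28), Rps18-ps5 (6.81), Rpl15-ps6 (6.47), Rps18-ps3 (6.34) and Rnps1-ps (5.78). It was also higher for Rpl15-ps2 (5.28), Glo1-ps (5.08), Rab11b-ps1 (4.95) and Atp6v0c-ps2 (4.22), and of the parents for Ndufs5 (2.68). The CFA response was lower in iKO for Ndufs5-ps (-6.02), Rps2-ps6 (-2.19) and Ap2m1-ps (-1.06), and of the parents for Atp6v0c (-2.04) and Rab11b (-1.35). These values compare responses and not levels, and the level of Rps2-ps6 was higher in iKO than in WT under both treatments. The calls of Atp6v0c, Rab11b, Rab11b-ps1, Rps18-ps3, Rps2-ps6 and Ap2m1-ps were lost without WT vehicle library 1, among other libraries. The WT vehicle and WT CFA libraries enter every one of these values, so they are not independent of one another.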

How the results depend on the processing

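Of 67 calls of named genes, 29 were kept under every alternative run for them (28 of 48 calls of pseudogenes and 1 of 19 of parents, Glo1 in iKO against WT under vehicle). Only parents were run with pseudogene reads added to the parent, and without that alternative 4 of their 19 calls were kept. Reversed were Ndufs5 with CFA in WT (0.83) and for the interaction (-0.32), when pseudogene reads were added to the parent (chosen after seeing the data, like the crossed pairing below), which follows from the construction of that sum. The following counts are pseudogenes, then parents. Fitting only the 4 libraries compared gave 11 and 4 with CFA in WT, 49 and 157 with CFA in iKO, 57 and 108 for iKO against WT under vehicle, and 7 and 2 under CFA. Of those tested, 5.76%, 25%, 30.2% and 3.63% of pseudogenes passed in the same order. Parents were at 1.81%, 71.4%, 49.1% and 0.909%, and all genes at 4.04%, 45.3%, 42.9% and 0.183%. DESeq2 gave 21 and 70 with CFA in iKO, 40 and 61 for iKO against WT under vehicle, 21 pseudogenes under CFA and 39 parents for the interaction. It called 20.6%, 26.8%, 6.09% and 20.8% of all genes in these comparisons. With CFA in iKO there were 4 and 1 without a filter, and 1 pseudogene with the setting legacy = FALSE, where 1.98% and 0.894% of all genes were called. Adding pseudogene reads gave 5 parents for iKO against WT under CFA (2.24%, against 1.52% of all genes). With the replicate number as a block the counts were 20 and 36 with CFA in WT, 0 and 0 with CFA in iKO, 18 and 21 for iKO against WT under vehicle, 12 and 7 under CFA, and 12 and 10 for the interaction. All genes were at 12.5%, 0%, 12.6%, 1.02% and 5.25% in this fit. Crossing the WT CFA numbers in the block gave 26 and 41, 0 and 0, 24 and 33, 12 and 9, and 15 and 19. There all genes were at 14.4%, 0.944%, 16.6%, 1.71% and 9.24%. Leaving out 1 library gave 8 to 44 and 2 to 112 with CFA in WT, 0 to 41 and 0 to 130 with CFA in iKO, 8 to 56 and 6 to 125 for iKO against WT under vehicle, 9 to 37 and 3 to 96 under CFA, and 8 to 48 and 3 to 132 for the interaction. The percentage of all genes called also moved widely over the same fits in each of these comparisons. The ranges are therefore no property of the pseudogenes and parents alone. For WT vehicle, WT CFA, iKO vehicle and iKO CFA, the pooled share was 3.67% to 3.76%, 2.80% to 3.27%, 3.21% to 3.23% and 3.34% to 3.46% when 1 library was left out, so that the lone library gave the value. It was 3.61%, 3.04%, 2.81% and 3.15% without Atp6v0c-ps2, which put iKO vehicle in place of WT CFA as the lowest group, 3.23% in WT vehicle without Rps2-ps10 and Rps18-ps5 (added after seeing the data), and 4.76%, 3.90%, 4.14% and 4.42% over pairs with both copies tested. The median pair was at 0.258%, 0.178%, 0.212% and 0.225%. For the other differences the cause was not tested. With 2 libraries a group and 137 pseudogenes below the filter, small differences were not detectable at this depth.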

Other observations

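Rps10-ps2, Rps7-ps3 and Rpl14-ps1, 3 ribosomal protein copies among the 12 pairs with most pseudogene reads, had lower shares in WT vehicle than in the other groups. Rps10-ps2 took 20.4% and 17.7% there and 27.9% to 31.8% in the 6 other libraries. Rps7-ps3 took 19.0% and 18.7% against 23.2% to 25.4%, and Rpl14-ps1 took 22.7% and 20.8% against 23.6% to 27.4%. In these pairs WT vehicle did not overlap with the rest, the reverse of Rps2-ps10 and Rps18-ps5. Gpr137b-ps, a copy listed as a transcribed unprocessed pseudogene, took 27.5% and 33.3% in WT vehicle and 35.9% to 42.1% elsewhere. Morf4l1-ps1 was the other way round, at 13.0% and 10.7% against 8.58% to 9.73%. Ubb-ps, a copy of a polyubiquitin gene, had its highest shares in iKO vehicle, at 5.08% and 5.03%, against 2.62% to 4.34% in the other 6 libraries. No test was made on these shares.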
